A study of Mus musculus with 6 samples.

Results

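The genes described here were 10 interferon-inducible GTPases of mouse dendritic cells, 5 guanylate-binding proteins (GBPs: Gbp2, Gbp3, Gbp5, Gbp7 and Gbp9) and 5 immunity-related GTPases (IRGs: Irgm1, Irgm2, Igtp, Iigp1 and Tgtp1). They were chosen by name among 54532 annotated genes, and all 10 had enough reads to be among the 14174 genes tested. RNA-seq was done on cultured mouse dendritic cells, 3 control libraries and 3 libraries treated with DB2313, a small molecule that the study used as an inhibitor of Spi1 (PU.1). Spi1 is a transcription factor of myeloid cells. The labels gave no strain, age, dose or time. They named dendritic cells, whereas the study wrote of macrophages, and no separate cultures or animals were named, so the p-values measure the spread between these libraries, which may be technical.

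Library totals were 16146743 to 16299657 counts in the control and 16310491 to 19764677 in the DB2313 libraries. In the deposited table the treated libraries were named for Spi1, and all directions rest on reading that name as DB2313. Markers of dendritic cells were present, with a summed level of 13294 to 13517 CPM in the control and 11332 to 13173 CPM with DB2313 for 12 genes, of which 3 were lower with DB2313 (Itgax, Batf3 and Irf4), and Cd209a had 4 counts at most. Markers of macrophages were present as well (9 of 9 genes tested, 5 of them lower, 9880 to 11274 CPM in the control and 8824 to 9727 CPM with DB2313). Most of the macrophage sum was Lyz2, with a mean of 8751 CPM in the control and 7887 CPM with DB2313. Cd74, with 6557 and 5999 CPM, was the largest part of the dendritic cell sum. The sums therefore rest in large part on these genes. In such bulk samples, fewer cells of a type and less RNA per cell cannot be told apart.

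GBPs and IRGs are made in large amounts after interferon gamma binds its receptor and acts through GAS sites, and many of them also respond to type I interferon through ISRE sites. GBPs assemble on the vacuoles of intracellular parasites and on bacteria that have reached the cytosol, and take part in inflammasome activation. Among IRGs, Irgm1, Irgm2 and Igtp (also called Irgm3) are regulators that sit on the membranes of the host cell and keep the effectors inactive there, whereas effectors such as Iigp1 (Irga6) and Tgtp1 (Irgb6) load onto the vacuoles of pathogens and break them open.

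Sequences before the start sites are shown because these genes are known through their interferon-responsive promoters. RefSeq windows of 250 bases before to 50 bases after a start (GRCm38.p6) were given for 8 of the 10 genes, as 9 windows. Gbp9 and Iigp1 had none. Below, the 250 bases before the start are written 5′ to 3′ along the gene for both called GBPs, for Gbp7 as their neighbour, and for the regulators Irgm1 and Igtp. Capitals mark every match to GAS (TTCNNNGAA), the ISRE core (GAAANNGAA), the PU.1 box (GAGGAA) or the ETS-IRF composite (GGAANNGAA), searched on both strands, and matches that touch run together.
Gbp2 (chr3:142620413-142620662, plus strand): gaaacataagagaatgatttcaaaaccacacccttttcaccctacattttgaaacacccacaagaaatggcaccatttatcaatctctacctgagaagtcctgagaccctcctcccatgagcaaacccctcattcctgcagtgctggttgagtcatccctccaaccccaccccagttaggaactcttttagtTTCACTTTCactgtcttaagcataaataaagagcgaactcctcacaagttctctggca
Gbp5 (chr3:142496684-142496933, plus strand): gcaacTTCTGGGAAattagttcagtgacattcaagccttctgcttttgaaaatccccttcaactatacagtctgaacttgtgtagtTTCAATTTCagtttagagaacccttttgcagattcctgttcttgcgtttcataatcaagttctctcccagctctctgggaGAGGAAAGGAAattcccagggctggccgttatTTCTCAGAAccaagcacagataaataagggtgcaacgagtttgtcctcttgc
Gbp7 (chr3:142530086-142530335, plus strand): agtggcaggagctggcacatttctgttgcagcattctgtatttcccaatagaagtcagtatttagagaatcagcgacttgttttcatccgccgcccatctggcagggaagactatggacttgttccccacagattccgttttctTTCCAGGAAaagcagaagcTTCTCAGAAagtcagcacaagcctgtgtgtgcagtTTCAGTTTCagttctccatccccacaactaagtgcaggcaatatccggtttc
Irgm1 (chr11:48871421-48871670, minus strand): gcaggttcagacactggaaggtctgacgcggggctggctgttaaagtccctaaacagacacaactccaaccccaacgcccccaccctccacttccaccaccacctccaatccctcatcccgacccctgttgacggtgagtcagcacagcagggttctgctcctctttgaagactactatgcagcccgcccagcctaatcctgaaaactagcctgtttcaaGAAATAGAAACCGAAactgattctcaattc
Igtp (chr11:58199306-58199555, plus strand): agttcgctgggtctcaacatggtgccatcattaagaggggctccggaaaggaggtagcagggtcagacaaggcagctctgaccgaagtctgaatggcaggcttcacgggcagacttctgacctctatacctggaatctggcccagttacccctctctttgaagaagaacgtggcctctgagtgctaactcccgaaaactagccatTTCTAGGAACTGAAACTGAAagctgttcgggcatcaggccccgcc

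The ISRE core was found in 8 of the 9 windows and GAS in 5, against 8.56% and 8.3% of all 32851 promoter windows of the same length. The PU.1 box was found in 5 windows (28.3% of all windows) and the ETS-IRF composite in 4 (8.24% of all). Other GBP and IRG relatives, described below, had 8 windows. Of these, 5 held the ISRE core, 3 GAS, 5 the composite and 0 the PU.1 box. Gbp2 held a single ISRE core, read on the opposite strand, with its first base 58 bases before the start, and Irgm1 held overlapping ISRE cores. Gbp5 and Gbp7 each held 2 GAS matches and an ISRE core. These matches describe letters and not bound sites.

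Irgm2, Igtp and Tgtp1 shared a compact arrangement that is printed to show its likeness. A GAS match was followed by an ISRE core whose first base lay 11 bases after that of the GAS, and the ETS-IRF composite overlapped both of them.
Irgm2: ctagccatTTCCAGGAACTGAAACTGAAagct
Igtp: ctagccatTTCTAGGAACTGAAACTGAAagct
Tgtp1: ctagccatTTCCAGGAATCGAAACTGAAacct
Of these 32 bases, 31 were identical between Irgm2 and Igtp, 29 between Irgm2 and Tgtp1, and 28 between Igtp and Tgtp1. All 3 genes were higher with DB2313, but so was Irgm1, which lacked a GAS match, and Gbp5 was lower with GAS, ISRE core, PU.1 box and composite all in its window. Tgtp2 and Gm12185, relatives described below, held the same arrangement. Neither was called (log2 fold change 0.33, adjusted p = 0.0598, and 0.16, adjusted p = 0.667, edgeR). Whether the motifs bear on the direction of change was not tested.

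With DB2313, all 5 IRGs were higher, by 1.28 to 1.54-fold, and none was lower. Of the GBPs, Gbp2 and Gbp5 were lower, to 0.801 and 0.761 of the control level, and Gbp3, Gbp7 and Gbp9 did not pass the test. Called here means an adjusted p under 0.05 in the quasi-likelihood test of edgeR, adjusted over all genes tested, which called 10.6% of them, 4.66% as higher and 5.94% as lower. The median log2 fold change was 0.34 over the 10 genes, 0.12 over the GBPs and 0.47 over the IRGs, against 8.2e-04 over all genes tested. For 7 of the 10 genes the 3 control and the 3 DB2313 libraries did not overlap, as was the case for 27.4% of all genes tested.

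**Figure D1:**
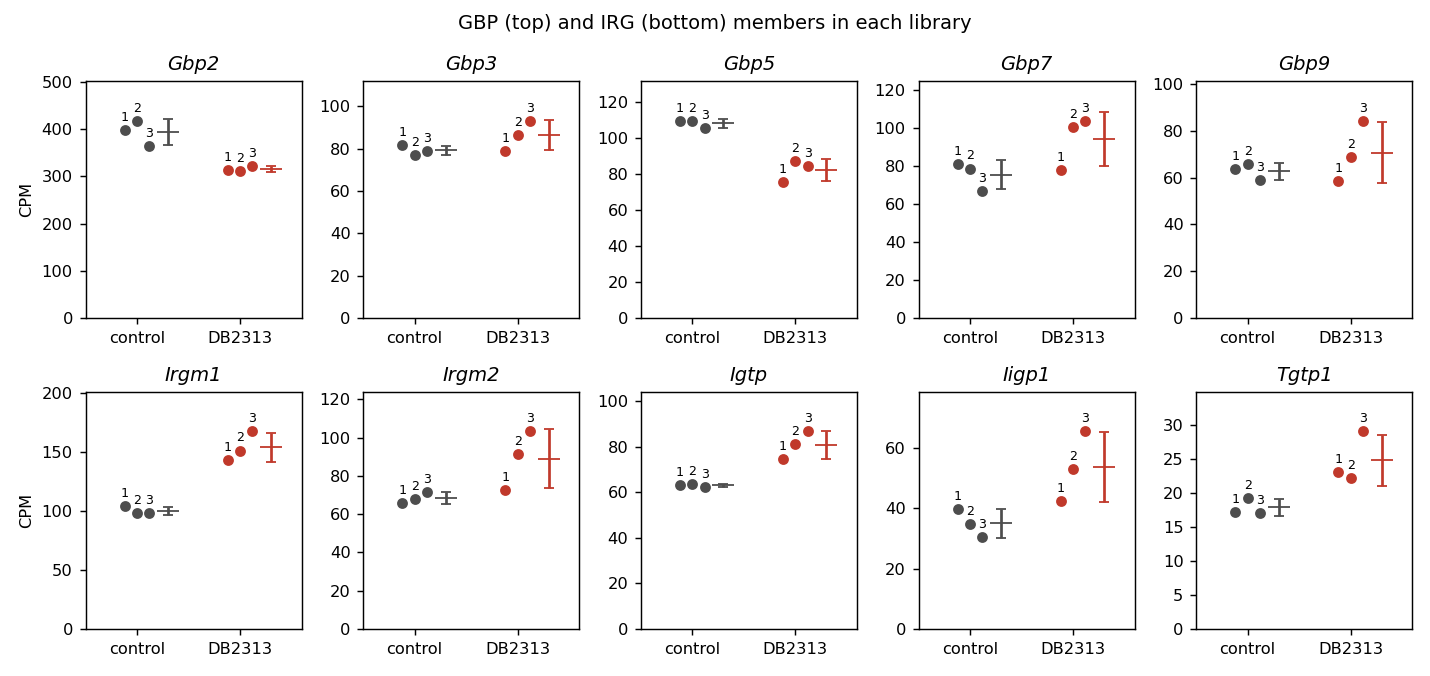
Level of each of the 10 GTPases in each library. The vertical axis is CPM (counts scaled to library size by TMM, starting at 0), points are libraries numbered by replicate, and the bar beside them is the mean ± SD of 3 libraries. In the lower row every DB2313 point of every IRG lies above all control points, and in the upper row the DB2313 points of Gbp2 and Gbp5 lie below them.

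Among the regulators, Irgm1 (ENSMUSG00000046879, chromosome 11, 48861968 to 48871683) had the smallest p of the 10 genes. Irgm1 is needed for resistance to mycobacteria and for normal autophagy in macrophages. The controls had 1690, 1560 and 1568 counts and the treated libraries 2348, 3011 and 2784, in the order of their replicate numbers (kept throughout). In CPM, which are counts scaled to a common library size by TMM, these were 103.9, 97.9 and 98.3 against 142.6, 151.0 and 167.3. All treated libraries were above all controls, with a gap wider than the spread within either group. The log2 fold change was 0.62 ± 0.078 (SE, n = 3 per group, adjusted p = 0.000119, edgeR), a rise of 53.5%.

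Irgm2 (ENSMUSG00000069874, chromosome 11, 58199618 to 58222782), a regulator known to restrain caspase-11, had 65.8, 68.0 and 71.8 CPM in the control and 72.6, 91.3 and 103.4 CPM with DB2313. The groups did not overlap, but DB2313 replicate 1 was just above the highest control. The log2 fold change was 0.38 ± 0.107 (SE, n = 3 per group, adjusted p = 0.0341, edgeR). This call was lost when any library other than DB2313 replicate 1 was left out, with adjusted p-values of 0.0532 to 0.154 in edgeR.

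Igtp (ENSMUSG00000078853, chromosome 11, 58199556 to 58207591) lies over the deposited start of Irgm2 on the same strand, and 162 exonic bases belong to both genes, 8.01% of those of Igtp and 4.39% of those of Irgm2. The RefSeq window of Irgm2 used above (58214727 to 58215026) surrounds another start, beyond the end of Igtp. The end of that window was not found in a GENCODE transcript of Irgm2. The controls of Igtp were the tightest of all, at 63.1, 63.5 and 62.2 CPM, against 74.6, 81.0 and 86.7 CPM with DB2313. All treated libraries were clearly apart from that narrow band. The log2 fold change was 0.36 ± 0.080 (SE, n = 3 per group, adjusted p = 0.00901, edgeR), and the adjusted p was 0.0508 without control replicate 3 and 0.0526 without DB2313 replicate 2.

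The effector Iigp1 (ENSMUSG00000054072, chromosome 18, 60376029 to 60392627) rose as much as Irgm1 but with more scatter. It had 39.8, 34.8 and 30.4 CPM in the control and 42.4, 53.0 and 65.6 CPM with DB2313. The lowest treated library was again replicate 1, a little above the highest control. Its log2 fold change was 0.62 ± 0.138 (SE, n = 3 per group, adjusted p = 0.00901, edgeR), and the adjusted p without control replicate 3 was 0.0599.

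Tgtp1 (ENSMUSG00000078922, chromosome 11, 48985327 to 48994172) was the least abundant of the 10 genes. Its counts were 280, 307 and 273 in the control and 381, 442 and 484 with DB2313, or 17.2, 19.3 and 17.1 CPM against 23.1, 22.2 and 29.1 CPM. The groups did not overlap, and the log2 fold change was 0.47 ± 0.124 (SE, n = 3 per group, adjusted p = 0.0231, edgeR). The adjusted p was 0.0999 without control replicate 1, 0.0928 without control replicate 3 and 0.0592 without DB2313 replicate 3.

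Tgtp1 has a near copy, Tgtp2, identical to it at 99.751% of 2811 bp, so reads may be divided between the pair and each value is uncertain. Summed, Tgtp1 and Tgtp2 had 45.0 to 49.8 CPM in the control and 55.7 to 71.2 CPM with DB2313, so the sum did not overlap between the groups either. Tgtp1 also shares 6.96% of its exonic bases with Gm12185 on the same strand.

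Gbp2 (ENSMUSG00000028270, chromosome 3, 142620602 to 142638008) is a prenylated GBP that coats vacuoles and cytosolic bacteria. It was by far the most abundant of the 10 genes, with counts of 6485, 6662 and 5803 in the control and 5145, 6202 and 5356 with DB2313. Its levels were 398.7, 417.9 and 364.0 CPM against 312.4, 311.0 and 321.8 CPM. The treated libraries agreed closely and lay below every control. Gbp2 fell by 0.32 ± 0.070 on the log2 scale (SE, n = 3 per group, adjusted p = 0.00781, edgeR), but the adjusted p was 0.0732 without control replicate 2 and 0.0655 without DB2313 replicate 2.

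Gbp5 (ENSMUSG00000105504, chromosome 3, 142493978 to 142522344), known to promote assembly of the NLRP3 inflammasome, had 109.6, 109.3 and 105.3 CPM in the control and 75.2, 87.1 and 84.4 CPM with DB2313. The lowest control was well above the highest treated library. It fell by 0.39 ± 0.078 on the log2 scale (SE, n = 3 per group, adjusted p = 0.00408, edgeR). Gbp5 and Irgm1 were the genes of the 10 whose call was kept in all 16 alternative analyses.

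The other GBPs did not pass the test. Gbp7 (ENSMUSG00000040253, chromosome 3, 142530342 to 142550149), linked to assembly of the phagocyte oxidase, had 80.9, 78.6 and 66.5 CPM in the control and 77.6, 100.2 and 103.8 CPM with DB2313. DB2313 replicate 1 lay among the controls and the other treated libraries above them. The log2 fold change was 0.32 ± 0.108 (SE, n = 3 per group, adjusted p = 0.0772, edgeR), and without DB2313 replicate 1 the adjusted p was 0.000773. Of its exonic bases, 11.35% also belong to the predicted gene Gm43802 on the same strand.

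Gbp3 (ENSMUSG00000028268, chromosome 3, 142560026 to 142573209), which lies between Gbp7 and Gbp2, had 81.6, 77.0 and 79.0 CPM in the control and 79.1, 86.7 and 93.3 CPM with DB2313. Again DB2313 replicate 1 was within the control range. Its log2 fold change was 0.12 ± 0.081 (SE, n = 3 per group, adjusted p = 0.396, edgeR), and no alternative called it.

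Gbp9 (ENSMUSG00000029298, chromosome 5, 105077630 to 105139539) had 63.5, 65.7 and 58.8 CPM in the control and 58.4, 68.9 and 84.3 CPM with DB2313, so the treated libraries reached both below and above the controls. For Gbp9 the log2 fold change was 0.17 ± 0.111 (SE, n = 3 per group, adjusted p = 0.398, edgeR). It was 0.29, with an adjusted p of 0.0377, without DB2313 replicate 1, and 0.02 without DB2313 replicate 3.

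The treated libraries kept much the same order across these genes. DB2313 replicate 1 was the lowest treated library for 8 of the 10 genes and replicate 3 the highest for 9. How often other genes had that order was not computed. The mean of the centred log2 CPM of the 10 genes was -0.055 in DB2313 replicate 1, 0.12 in replicate 2 and 0.28 in replicate 3, and -0.078, -0.085 and -0.18 in the control libraries. Neutrophil markers (9 genes, all tested, 3 higher and 1 lower) ran the other way among the treated libraries, with 4487, 3763 and 3502 summed CPM in DB2313 replicates 1 to 3 and 3328 to 3722 in the control. Their part in the levels of the GTPases was not tested. Without DB2313 replicate 1, 7 of the 10 genes were called higher, and without control replicate 3 only Irgm1 was. The values themselves stayed on their side of 0 in all 16 alternatives.

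**Figure D2:**
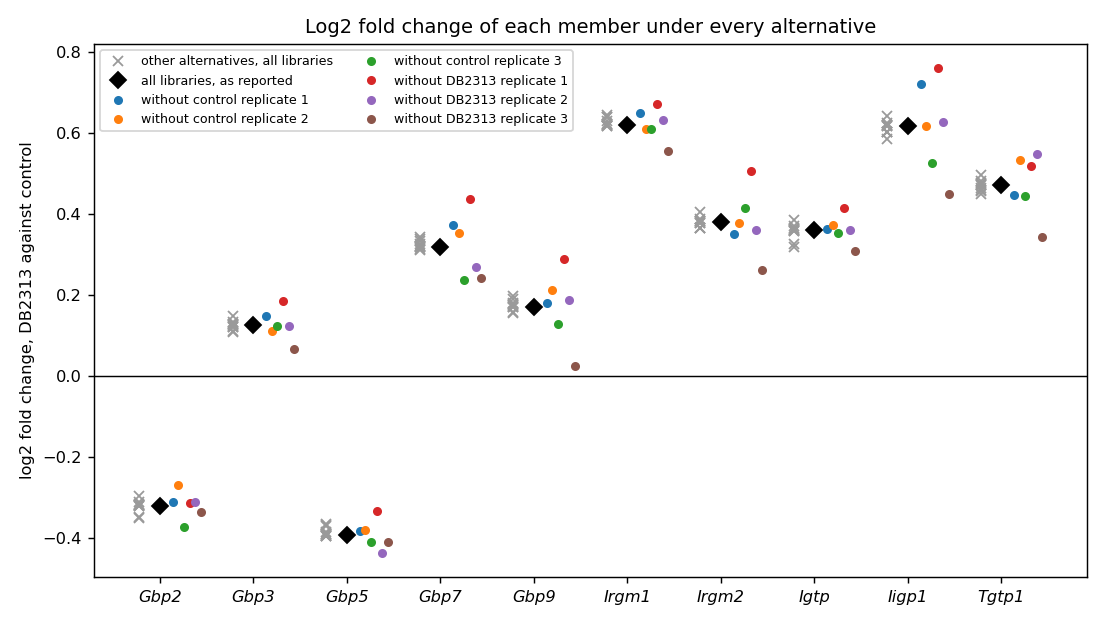
Log2 fold change of each of the 10 GTPases (vertical axis, DB2313 against control) with all libraries (diamond), under other settings with all libraries (grey crosses) and with each library left out (coloured points). No point crosses 0, and the spread is widest for Iigp1, from 0.45 without DB2313 replicate 3 to 0.76 without DB2313 replicate 1.

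Levels were compared between genes as RPKM, which also divides by the length of the gene. In the control, Gbp2 had 156 ± 10.9 RPKM (SD, n = 3) and Igtp, the next gene, 31.1 ± 0.353. Gbp3 followed with 24.3 RPKM, then Irgm2 with 18.6, Irgm1 with 17.2, Gbp5 with 16.3, Gbp7 with 13.4, Gbp9 with 12.1, Iigp1 with 11.2 and Tgtp1 with 5.57. Among the neighbours in that order, Irgm2 and Irgm1, Gbp7 and Gbp9, and Gbp9 and Iigp1 overlapped in their libraries.

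With DB2313, Gbp2 remained first with 125 ± 2.34 RPKM (SD, n = 3), followed by Igtp with 40.0 ± 2.99. Irgm1 had 26.4 RPKM, beside Gbp3, and Iigp1 had 17.2. Gbp5 came ninth with 12.4 RPKM, and Tgtp1 was again last with 7.74. From Gbp3 in the third place to Gbp5, each gene overlapped with the next in its libraries, although Gbp3 and Irgm1 lay wholly above Iigp1, Gbp7, Gbp9 and Gbp5. The place of Iigp1 rests on its deposited length of 3121 bp. With the 5823 exonic bases that GENCODE M21 gives it, a length tried after the data were seen, it would have 6.01 ± 0.815 RPKM in the control and 9.22 ± 2.00 RPKM with DB2313 (SD, n = 3) and come ninth in both groups. The share of Gbp2 in the counts of the 5 GBPs was 54.0% to 55.8% in the control and 46.8% to 51.8% with DB2313.

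Summed over each family, the IRGs had 289.9, 283.5 and 279.8 CPM in the control and 355.3, 398.6 and 452.0 CPM with DB2313. The GBPs had 734.2, 748.5 and 673.6 CPM against 602.6, 653.8 and 687.6 CPM. The IRG sums were apart and the GBP sums overlapped. For all 10 genes the sum was 1003 ± 43.3 CPM in the control and 1050 ± 90.9 CPM with DB2313 (SD, n = 3), and the groups overlapped.

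Ratios within a library do not depend on how libraries are scaled. IRG counts were 0.395, 0.379 and 0.415 of GBP counts in the control and 0.590, 0.610 and 0.657 with DB2313. Because Gbp2 is the most abundant GBP, the ratio was also taken without it, and was 0.864, 0.857 and 0.904 against 1.22, 1.16 and 1.24. Both ratios restate in part the calls of the single genes. They separated the groups, and the difference in mean log2 was 0.64 ± 0.060 with Gbp2 and 0.46 ± 0.036 without (SE). Exact two-sided permutation tests of 3 against 3 libraries gave p = 0.1 for both, the smallest value that this design allows.

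Of the 8 ratios of gene pairs that were computed, 5 separated the groups, each with the smallest exact permutation p of 0.1. The share of other gene pairs that separate was not computed, while 27.4% of single genes tested did not overlap. Each of the 5 pairs held a gene called above, so the ratios restate those calls in part. Gbp7 over Gbp5, neighbours on chromosome 3, was 0.739, 0.719 and 0.632 in the control and 1.03, 1.15 and 1.23 with DB2313. The ratio thus changed from fewer to more reads on Gbp7 than on Gbp5 in every treated library. Irgm1 over Gbp2 went from 0.255 ± 0.019 to 0.487 ± 0.032, and Irgm1 over Igtp from 1.59 ± 0.053 to 1.90 ± 0.034 (SD, n = 3). Gbp3 over Gbp2 and Gbp7 over Gbp2 separated as well.

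Iigp1 over Tgtp1, Gbp5 over Gbp2 and Irgm2 over Igtp overlapped between the groups (exact permutation p = 0.4, 0.5 and 1.0 with n = 3 per group). Irgm2 over Igtp was 1.09 ± 0.059 in the control and 1.10 ± 0.11 with DB2313, and Gbp5 over Gbp2 was 0.275 ± 0.014 and 0.261 ± 0.020 (SD, n = 3).

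**Figure D3:**
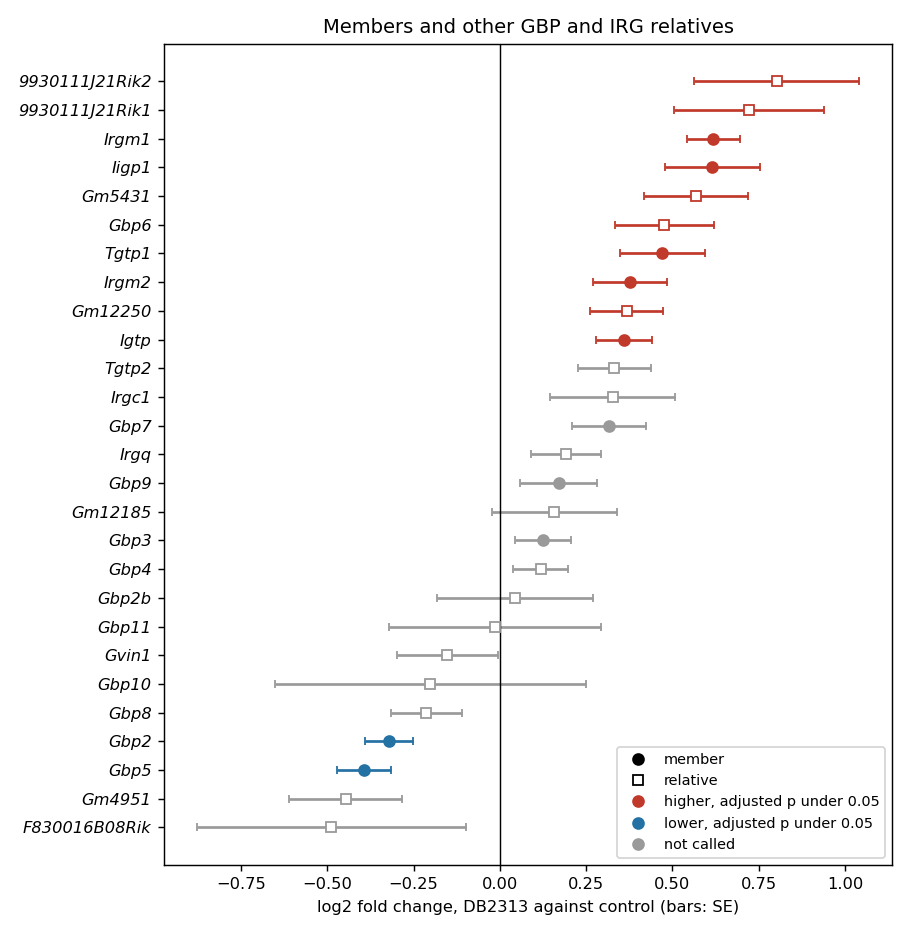
Log2 fold change of the 10 GTPases (circles) and 17 relatives (open squares), DB2313 against control, with SE bars. Red marks genes called higher, blue genes called lower and grey genes not called. The 5 IRGs lie between 0.36 and 0.62, Gbp2 and Gbp5 are the only genes called lower, and the relatives span -0.49 to 0.80.

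A fixed list of other relatives, not a complete one, held 17 genes, all tested. Of these 5 were higher and none was lower, against 4.66% and 5.94% of all genes tested. Their median log2 fold change was 0.16. Those called were Gbp6, a GBP of the chromosome 5 cluster, with 16.9, 16.6 and 12.2 CPM in the control and 18.5, 20.96 and 24.2 CPM with DB2313 (log2 fold change 0.48 ± 0.143, adjusted p = 0.0446), and the IRG-like genes Gm12250 (0.37, adjusted p = 0.0375), Gm5431 (0.57, adjusted p = 0.0242), 9930111J21Rik1 (0.72, adjusted p = 0.0452) and 9930111J21Rik2 (0.80, adjusted p = 0.0445), all from edgeR. Gm5431 and both 9930111J21Rik genes overlapped between the groups through DB2313 replicate 1, which did not exceed the highest control. None of these 5 calls was kept when control replicate 2, control replicate 3 or DB2313 replicate 2 was left out, and without DB2313 replicate 3 there were 2 relatives higher and 3 lower.

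Several of these relatives are near copies. 9930111J21Rik1 and 9930111J21Rik2 are identical at 98.975% of 3221 bp, and Gbp6 and Gbp10 at 99.17% of 3131 bp, so their values are uncertain. Gbp6 is closer still to Gm43302, at 99.847% of 3923 bp, and shares 28.99% of its exonic bases with it. Gm5431 is identical to 9930111J21Rik1 at 95.745% of 2961 bp and to 9930111J21Rik2 at 95.643%, so its value is uncertain too. Tgtp2 did not overlap between the groups but was not called (0.33 ± 0.106, adjusted p = 0.0598, edgeR).

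The remaining relatives were not called. On chromosome 3, Gbp2b had a log2 fold change of 0.04. On chromosome 5, Gbp4 had 0.12, Gbp8 -0.21, Gbp10 -0.20 and Gbp11 -0.01. Irgc1, Irgq and Gm12185 had 0.33, 0.19 and 0.16. Gm4951 and F830016B08Rik, IRG-like genes, had -0.45 and -0.49, with SEs of 0.163 and 0.389, and Gvin1, a giant interferon-induced GTPase, had -0.15. Gvin1 is identical to Gm4070 at 99.967% of 9005 bp, so its value is uncertain. Ifi47 (Irgd), an IRG that was added after its values were seen, had 110.6 ± 8.93 CPM in the control and 108.3 ± 6.81 CPM with DB2313 (SD, n = 3) and a log2 fold change of -0.03 ± 0.082 (adjusted p = 0.871, edgeR). It lies beside Tgtp2 on chromosome 11, so not every abundant IRG was higher.

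**Figure D4:**
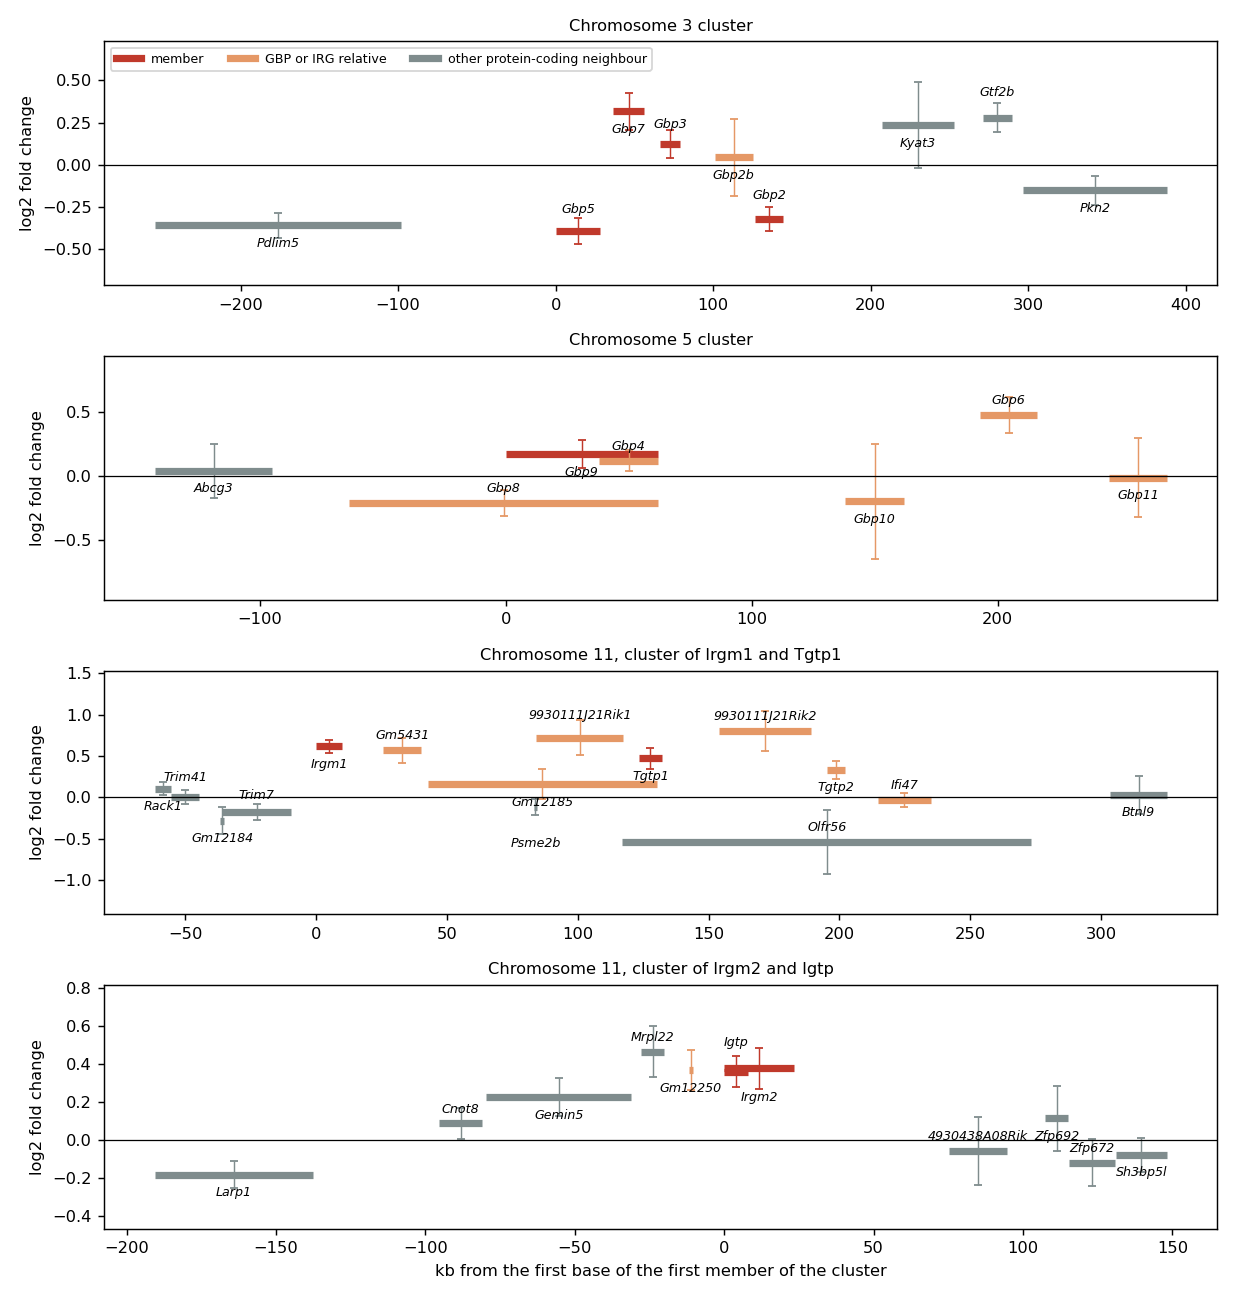
Log2 fold change (vertical axis, DB2313 against control, thin bars SE) by distance in kb from the first base of the first of the 10 GTPases in each cluster. Thick bars span each gene. Red are the 10 GTPases, orange their relatives and grey other protein-coding genes tested within 200 kb. On chromosome 3, Gbp5 and Gbp2 lie below 0 while Gbp7 and Gbp3, between them, lie above it, and in the cluster of Irgm1 and Tgtp1 most family genes lie above 0 and Ifi47 lies near it.

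The genes stand in clusters. On chromosome 3 the order was Gbp5, Gbp7, Gbp3, Gbp2b and Gbp2, with log2 fold changes of -0.39, 0.32, 0.12, 0.04 and -0.32, so the called genes stood at both ends. Outside the lists, 33 protein-coding genes lay within 200 kb of the 10 GTPases, Ifi47 and the Gbp6 copy Gm43302 included. Of these, 25 were tested, 2 were higher and 1 was lower, near the 10.6% called over all genes tested. The median log2 fold change was -0.03. Those called were Gtf2b, the general transcription factor TFIIB (0.28, adjusted p = 0.0472), Mrpl22, a protein of the mitochondrial ribosome (0.47, adjusted p = 0.0398), and Pdlim5, a PDZ and LIM domain protein (-0.36, adjusted p = 0.00541, edgeR). The calls of Gtf2b and Mrpl22 were lost without any control library or DB2313 replicate 2, with adjusted p-values of up to 0.227, and that of Gtf2b without DB2313 replicate 1 as well.

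Upstream of these genes, 3 of 19 receptor and signalling genes were higher and 1 was lower, with a median log2 fold change of -0.11. Over all genes tested, 4.66% were called higher and 5.94% lower. Ifngr1, the ligand-binding chain of the interferon gamma receptor, had 218.6, 203.2 and 195.8 CPM in the control and 260.4, 268.8 and 275.6 CPM with DB2313. The groups were clearly apart, with a log2 fold change of 0.38 ± 0.069 (adjusted p = 0.00214, edgeR). Its partner Ifngr2 was not called (-0.11 ± 0.078, adjusted p = 0.446).

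Irf7, the regulator of type I interferon genes, was higher by 0.42 ± 0.109 on the log2 scale (adjusted p = 0.0218) and Jak2, a kinase of the interferon gamma receptor, was lower, at -0.26 ± 0.070 (adjusted p = 0.0272). Irf1, a transcription factor induced by interferon gamma that acts on GBP promoters, had 233.7 ± 17.1 and 226.7 ± 10.6 CPM (SD, n = 3) and was not called (adjusted p = 0.784, edgeR). The call of Jak2 was lost without any control library or DB2313 replicate 2 (adjusted p of up to 0.194) and that of Irf7 without control replicate 1 or 2 (up to 0.123), while Ifngr1 was called whichever library was left out. In this list 1 to 4 genes were higher and 0 to 4 lower with a library left out, the 4 lower without DB2313 replicate 3.

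Interferons themselves were hardly detected. Of 22 genes for interferons and cytokines that induce interferon gamma, 14 were at 0 in every library and 3 were tested. Ifng had 13, 18 and 26 counts in the control and 13, 20 and 7 with DB2313 (log2 fold change -0.66 ± 0.471, adjusted p = 0.442, edgeR), and a difference was not detectable at this depth. Ifnb1 had 3 counts in control replicate 2 and none elsewhere, which allows up to 3 counts in each of those libraries. Il12b, a subunit of the cytokine that drives lymphocytes to make interferon gamma, was lower, with 29.4, 32.9 and 31.0 CPM in the control and 17.3, 15.4 and 13.4 CPM with DB2313 (-1.02 ± 0.115, adjusted p = 4.9e-05, edgeR).

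**Figure D5:**
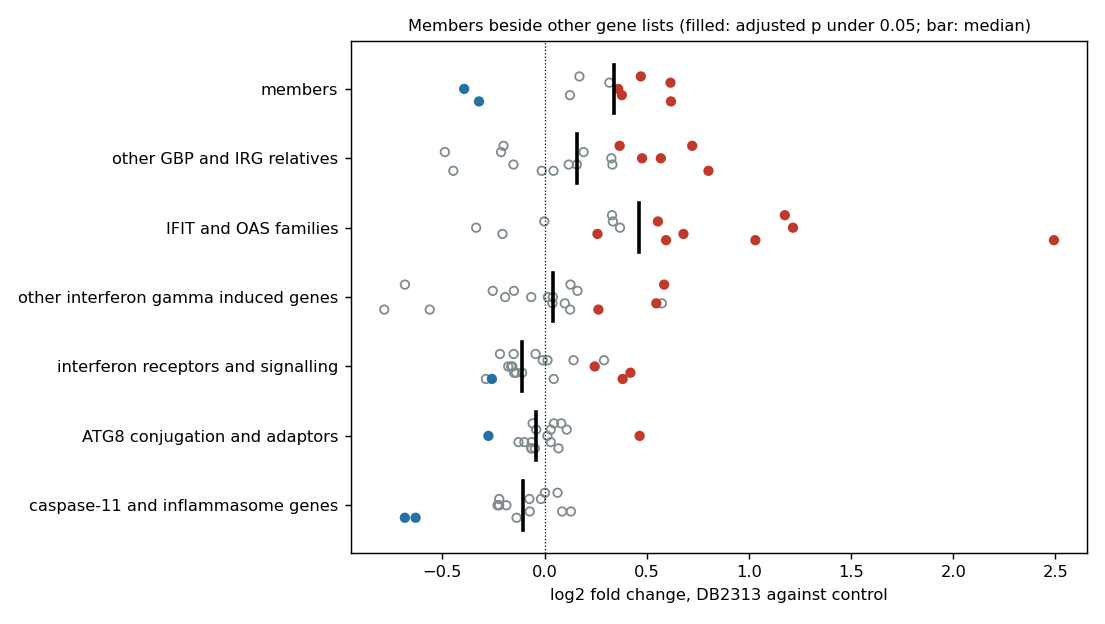
Log2 fold change (horizontal axis, DB2313 against control) of every tested gene in each list. Filled points are called (red higher, blue lower), open points are not, and the black bar is the median of the list. The medians are 0.34 for the 10 GTPases, 0.46 for the IFIT and OAS genes and 0.04 for other interferon gamma induced genes.

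Other genes induced by interferon were read beside them. Of 14 tested IFIT and OAS genes, antiviral genes that respond above all to type I interferon, 8 were higher and none was lower, with a median log2 fold change of 0.46. The highest were Ifit3b (2.49 ± 0.368), Oasl1 (1.22 ± 0.107) and Ifit3 (1.18 ± 0.133), and the lowest of those called were Oas1a (0.26 ± 0.078), Oasl2 (0.55 ± 0.106) and Oas2 (0.59 ± 0.147), with adjusted p-values of 4.7e-06 to 0.0464 in edgeR. Ifit3b had at most 9.25 CPM and is known as a near copy of Ifit3. Their likeness was not measured, because copies were searched only for the GTPases and their relatives, and both values are uncertain. Of 18 tested genes from a list of other interferon gamma targets, such as Cxcl9, Ciita and Psmb9, 3 were higher and none was lower, with a median of 0.04. These were Batf2, a transcription factor of activated macrophages (0.59, adjusted p = 0.00644), Fcgr1, the high-affinity IgG receptor (0.26, adjusted p = 0.0477), and Serpina3g, a serine protease inhibitor (0.55, adjusted p = 0.000127). The calls of Fcgr1 and Oas1a were lost without any library but DB2313 replicate 1, and that of Oas2 without control replicate 2 or 3, while the others named were called whichever library was left out. Among the other interferon gamma targets, 2 were lower without DB2313 replicate 1 and 1 without DB2313 replicate 3. Over all genes tested, 4.66% were called higher and 5.94% lower. The differences between these lists were not tested.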

How the data were processed

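RNA-seq was done on 3 control and 3 DB2313 libraries. The authors deposited raw counts per gene, as whole numbers without normalisation, with gene lengths. Per the labels, the submitters' processing notes name CASAVA 1.8, HISAT2 2.0.5 and featureCounts 1.5.0-p3, whereas the study's methods name LifeScope. The genome build, strandedness and treatment of reads with several matches are not given in the sources used here, and overlapping genes and near copies are uncertain for that reason. GENCODE M21 held 54409 of the gene identifiers, 98.33% of them at the same coordinates, which are therefore given as GRCm38.

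Groups came from the treatment label. Column names were matched to samples by cell type or target name and number. The counts were tested with the quasi-likelihood test of edgeR 4.0.16 (R 4.3.3) with TMM scaling and filterByExpr, and with no term but the group. P-values were adjusted by Benjamini-Hochberg over 14174 genes. The biological coefficient of variation was 9.665%. CPM and RPKM were computed from the counts with TMM-scaled library sizes and deposited lengths. The script was tested on simulated data. Total counts of 16146743 to 19764677 set the precision of each value.

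The alternatives were DESeq2 1.42.0, its size factors, scaling to library totals, omission of the filter, a minimum mean of 10 counts, limma-voom (limma 3.58.1), robust edgeR, a gene length offset (lowess span of 0.3), the replicate block, offset and block together, and each library left out in turn. The GENCODE length of Iigp1 was added after the data were seen. Same-numbered libraries did not deviate together. Copies of the 10 GTPases and their relatives were searched with blastn 2.17.0. The rule for named genes took all 10 GTPases, all relatives, called genes of each list (the 3 highest and 3 lowest where more than 6 were called), Irf1, Ifng, Ifngr1 and Ifngr2, 1 gene whose values are not reported here, called neighbours within 200 kb, and the 5 genes outside the lists with at least 2 mean log2 CPM whose pattern was most like that of the GTPases. The genes and lists were chosen with earlier results of these data known. No batch or date was given in the labels.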

Additional observations from a re-analysis of the deposited data

How the results depend on the processing

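No direction of the 10 GTPases was reversed in 16 alternatives. With all libraries, 5 or 6 were higher and 2 were lower, Gbp7 being the gene added without the filter (adjusted p = 0.0061) and with the length offset (0.0229, or 0.0332 with the block as well). Leaving out a library mattered more. The number of GTPases called higher then ranged from 1 (without control replicate 3) to 7 (without DB2313 replicate 1), that called lower from 1 to 2, and that of all changed genes from 739 (without DB2313 replicate 2) to 2408 (without DB2313 replicate 3), against 1503. These fits also had fewer libraries, and the cause of the changes in number was not tested. The median of the 10 genes was 0.25 to 0.43. Replicate numbers did not pair the libraries, since the deviations of same-numbered libraries correlated at 0.0035, -0.024 and -0.12, and with the replicate block 5 GTPases were higher, 2 were lower, the median was 0.33 and 1131 genes were changed. Relatives called higher numbered 3 with library totals, limma-voom or robust edgeR and 0 to 6 with a library left out, against 5, and those called lower 1 without the filter and 3 without DB2313 replicate 3, against 0. In the signalling list, 3 genes were lower with the length offset and none with the replicate block, against 1. Near copies and low counts of interferon genes limit those values.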

Other observations

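GBPs and IRGs reach vacuoles with the help of the ATG8 conjugation machinery, of which 17 genes were tested. Gabarapl1, an ATG8 family member, was higher, at 93.7 ± 1.03 CPM in the control and 129.4 ± 5.50 CPM with DB2313 (SD, n = 3) (log2 fold change 0.47 ± 0.071, adjusted p = 0.000624, edgeR), and Atg7, the E1-like enzyme of the pathway, was lower (-0.27 ± 0.073, adjusted p = 0.0249), a call that was lost without any control library or DB2313 replicate 2 (adjusted p of up to 0.132). The other 15 did not pass the test, and the median was -0.04. Over all genes tested 10.6% were called, a share near that of this list. Of 14 inflammasome genes, none was higher and 2 were lower, the sensor Nlrp3 (-0.63 ± 0.102, adjusted p = 0.000961, edgeR) and the cytokine Il1b (-0.68 ± 0.130, adjusted p = 0.0031), with a median of -0.11, and 6 were lower without DB2313 replicate 3. Over all genes tested, 5.94% were called lower.

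Transcripts of other cells were present. T and NK cell markers, such as Cd3e with 221 to 331 counts in the control and 269 to 391 with DB2313, summed to 341 to 405 CPM in the control and 311 to 454 CPM with DB2313, and none of 11 tested was called by edgeR. Of 7 tested mast cell and basophil markers, 2 were higher (Fcer1a and Hdc), against 4.66% of all genes tested. The call of Fcer1a was lost when any library other than DB2313 replicate 3 was left out (adjusted p of up to 0.11, edgeR). That of Hdc was lost without control replicate 1, control replicate 3 or DB2313 replicate 2 (up to 0.156). The mast cell and basophil list summed to 1359 to 1434 CPM in the control. In DB2313 replicates 1 to 3 the mast cell and basophil markers had 1634, 1537 and 1372 CPM and the T and NK cell markers 454, 367 and 311 CPM, the opposite order to most of the GTPases. Of 6 markers of plasmacytoid dendritic cells, 3 were tested and none was called. These were Tcf4 with 363 to 556 counts, Pacsin1 with 136 to 250 and Ccr9 with 20 to 38. Of the others, Siglech had 8 counts at most, Cox6a2 had 10 at most and Klk1 had none, which allows up to 3 counts in each library. Of 5 B cell markers, 1 was tested and not called. The part of these cells in the levels of the GTPases was not tested.

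The genes outside the lists whose log2 CPM followed the mean of the 10 GTPases most closely over the 6 libraries were Dyrk1b, Rapgef6, Top2a, Gla and Ccdc50, with Pearson's r of 0.990 to 0.998. They share libraries with the GTPases, none was called changed, and their log2 fold changes were 0.11 to 0.30.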
